A study of Homo sapiens with 12 samples.

Results

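The genes described here are the protein-coding zinc finger genes of human chromosome 19 whose symbol is ZNF followed by a number and at most 1 letter. A gene was taken when its summed estimated counts reached 10 in 3 or more of the 12 libraries. Of 246 genes with such a symbol on chromosome 19, 210 met the rule, among 12876 genes that met it in the whole series. Of the 36 others, 16 had no count in any library. Just inside the rule lay ZNF568 and ZNF582, which reached 10 counts in 3 libraries and totalled 73 and 72 counts. Just outside lay ZNF829 and ZNF540, which reached 10 in 2 libraries and totalled 82 and 64 counts.

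Most of these genes encode C2H2 zinc finger proteins, in which each finger is a short loop held by a zinc ion and reads a few bases of DNA. Many carry a KRAB domain at their start, which recruits the corepressor TRIM28 (KAP1) and, through it, the histone methyltransferase SETDB1, so that the sites they bind are silenced with H3K9 methylation. The genes multiplied by tandem duplication in primates and other mammals and stand in dense clusters on chromosome 19, and many of them bind and silence transposable elements.

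The study measured polyadenylated RNA in HepG2, a cell line from a human liver tumour. It held 4 groups of 3 libraries, described by the submitters as biological replicates. Wild-type cells (WT) and cells edited at ARID1B with CRISPR/Cas9 (ARID1B-KO) each received either 5 µM sorafenib for 48 h or DMSO vehicle at 0.1% by volume. ARID1B belongs to the BAF (SWI/SNF) chromatin remodelling complex, and sorafenib inhibits RAF and several receptor kinases. No source used here gives the number of knockout clones, so a difference between the genotypes cannot be told apart from a difference between clones. The libraries held 19739582 to 29398257 estimated counts. ARID1B read 58.4 to 69.1 CPM (counts scaled to a common library size) in the 6 WT libraries and 25.9 to 35.6 CPM in the 6 ARID1B-KO libraries, so its RNA was lower but present in the knockout. All 6 hepatocyte markers were detected, with a summed level of 74637 to 172474 CPM. Of the 5 fibroblast markers 1 reached 1 CPM (summed level 0.889 to 22.1 CPM) and COL1A2 and DCN were at 0. That 1 was PDGFRB, at 13.5 to 21.5 CPM in WT with DMSO and 0.79 to 4.45 CPM in the other groups. Of the 5 leukocyte markers 2 reached 1 CPM (summed 486 to 4047 CPM) and PTPRC was at 0. Most of that sum was LYZ, at 3610 to 4019 CPM in WT with DMSO, 1795 to 2427 CPM in ARID1B-KO with DMSO, and 808 to 918 and 457 to 576 CPM with sorafenib. The other was CD68, at 26.2 to 31.4 CPM in WT with DMSO and 37.7 to 52.4 CPM in ARID1B-KO with DMSO. It was thus higher in ARID1B-KO with DMSO, by 0.74 on the log2 scale (edgeR adjusted p = 0.00558). With sorafenib CD68 read 27.1 to 31.6 CPM in WT and 29.3 to 45.5 CPM in ARID1B-KO. Of the 3 endothelial markers (summed 1.16 to 10.6 CPM) VWF and CDH5 reached 1 CPM, and both were higher in ARID1B-KO, by 2.08 and 1.61 on the log2 scale with DMSO (edgeR adjusted p = 0.00267 and 0.00333). The part of these genes in the differences described was not tested.

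The promoters of a few of these genes, from both chromosome arms, are shown here. The stretch shown is the 250 bases before the start site in RefSeq (GRCh38.p14), 5′ to 3′ on the strand of the gene. Capitals mark the CCAAT-box motif CCAATCA (or TGATTGG on the other strand) and the core of ETS factor sites, CCGGAA (or TTCCGG). Both motifs were chosen after earlier results were known, the first after the promoters had been read, and in the promoters shown they did not overlap. ZNF799 at chr19:12401272-12401521 (-) and ZNF443 at chr19:12441022-12441271 (-) are neighbours that fell under sorafenib, and ZNF563 at chr19:12333634-12333883 (-) lies near them and rose.
ZNF799: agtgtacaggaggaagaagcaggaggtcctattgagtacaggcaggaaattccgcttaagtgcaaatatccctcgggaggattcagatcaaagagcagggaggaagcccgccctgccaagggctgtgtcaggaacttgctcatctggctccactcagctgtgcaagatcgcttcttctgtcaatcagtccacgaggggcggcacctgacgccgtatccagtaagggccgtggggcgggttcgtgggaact
ZNF443: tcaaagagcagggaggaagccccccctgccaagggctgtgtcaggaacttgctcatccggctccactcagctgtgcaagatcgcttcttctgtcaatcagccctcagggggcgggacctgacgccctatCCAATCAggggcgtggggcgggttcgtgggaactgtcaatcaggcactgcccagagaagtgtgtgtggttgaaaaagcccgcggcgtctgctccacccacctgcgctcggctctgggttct
ZNF563: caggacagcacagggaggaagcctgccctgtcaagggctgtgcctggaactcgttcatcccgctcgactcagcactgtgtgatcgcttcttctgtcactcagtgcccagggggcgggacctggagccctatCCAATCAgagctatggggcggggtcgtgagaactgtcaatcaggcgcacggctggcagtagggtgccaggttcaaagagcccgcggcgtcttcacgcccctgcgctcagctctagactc

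ZNF844 at chr19:12064481-12064730 (+) and ZNF564 at chr19:12551483-12551732 (-) are short-arm genes that were higher in ARID1B-KO. ZNF45 at chr19:43935283-43935532 (-) and ZNF227 at chr19:44212282-44212531 (+) are long-arm genes that were lower there.
ZNF844: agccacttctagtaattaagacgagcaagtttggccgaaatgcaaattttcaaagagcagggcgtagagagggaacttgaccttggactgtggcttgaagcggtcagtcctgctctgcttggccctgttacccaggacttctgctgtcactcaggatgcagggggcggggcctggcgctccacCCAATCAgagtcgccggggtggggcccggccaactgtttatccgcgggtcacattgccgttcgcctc
ZNF564: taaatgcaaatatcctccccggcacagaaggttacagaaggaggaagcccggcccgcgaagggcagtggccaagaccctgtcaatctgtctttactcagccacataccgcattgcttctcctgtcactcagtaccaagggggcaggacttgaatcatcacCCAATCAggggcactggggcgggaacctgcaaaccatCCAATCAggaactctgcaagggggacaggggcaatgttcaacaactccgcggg
ZNF45: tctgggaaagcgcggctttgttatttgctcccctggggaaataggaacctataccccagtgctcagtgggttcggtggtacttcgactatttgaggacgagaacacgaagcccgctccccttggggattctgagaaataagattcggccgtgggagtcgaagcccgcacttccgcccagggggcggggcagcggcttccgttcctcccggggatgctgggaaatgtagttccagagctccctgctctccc
ZNF227: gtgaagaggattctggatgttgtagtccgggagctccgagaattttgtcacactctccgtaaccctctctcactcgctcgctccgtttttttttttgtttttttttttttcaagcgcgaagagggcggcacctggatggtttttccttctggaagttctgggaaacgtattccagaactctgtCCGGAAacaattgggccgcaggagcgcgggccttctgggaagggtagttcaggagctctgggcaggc

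In a local alignment, ZNF443 and ZNF563 matched at 193 of 239 aligned columns (80.8%), and ZNF799 and ZNF443 at 152 of 163 (93.3%). ZNF799 and ZNF563 matched at 127 of 157 (80.9%). Some other pairs of the same cluster were less alike, such as ZNF844 and ZNF564 (125 of 200, 62.5%) and ZNF799 and ZNF844 (135 of 224, 60.3%). Between the arms, ZNF799 and ZNF227 matched at 27 of 36 (75%) and ZNF844 and ZNF45 at 23 of 32 (71.9%), over shorter stretches. A promoter was found for 189 of the 210 genes. CCAATCA stood in 49 of the 66 short-arm promoters (74.2%) and in 4 of the 123 long-arm promoters (3.25%). It was found in 9.25% of the promoters of tested genes and in 6.9% of all 27305 promoters in the table. By cluster it stood in all 19 promoters of the cluster from ZNF101 to ZNF257, in 22 of 24 from ZNF653 to ZNF791, and in none of 13 from ZNF557 to ZNF846, which is also on the short arm. The ETS core stood in 38.1% of these genes' promoters and in 39.3% of those of zinc finger genes on other chromosomes. It stood in 25.9% of the promoters of tested genes and 14.8% of all. The median number of CG dinucleotides in 250 bases was 16 in these genes and 21 in all tested genes.

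These genes were expressed at low levels. Their median level, per transcript length, was 2.29 TPM (a count scaled for transcript length and library size), with quartiles of 1.09 and 4.44 TPM. All tested genes had a median of 10.9 TPM, and the 212 zinc finger genes of the same symbol pattern on other chromosomes 3.52 TPM. Of the 210 genes, 45 were below 1 TPM and 7 above 10 TPM. The median gene held 100 to 145 counts in a library, and all 210 together held 0.128% to 0.167% of a library's counts. That share was 0.14% to 0.144% in WT with DMSO and 0.15% to 0.167% in ARID1B-KO with DMSO, without overlap. With sorafenib it was 0.129% to 0.133% in WT and 0.128% to 0.159% in ARID1B-KO, which overlapped. Summed as TPM, these genes overlapped in DMSO as well, at 689 to 713 in WT and 705 to 817 in ARID1B-KO. Zinc finger genes on other chromosomes summed to 1513 to 1596 TPM in WT with DMSO and 1620 to 1857 TPM in ARID1B-KO with DMSO, without overlap.

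The highest level belonged to ZNF146, a protein made almost only of fingers and without a KRAB domain, at 28.7 ± 5.91 TPM (SD over the 12 libraries). It was followed by ZNF444, a SCAN-domain factor, at 21.7 ± 2.24 TPM and ZNF561 at 20.7 ± 2.62 TPM, which lie within each other's spread. The next were ZNF749 at 14 TPM, ZNF614 at 12.5 TPM, ZNF428 at 11.4 TPM, ZNF266 at 11 TPM, ZNF580 at 9.59 TPM, ZNF28 at 9.58 TPM and ZNF626 at 9.13 TPM. A KRAB A box was found by sequence pattern in 171 of the 210 proteins, and the median protein had 12 fingers, with a range of 1 to 32. The 210 genes fell into 16 clusters when a new one was begun at each gap over 1000000 bases. Of these, 7 held 10 or more genes and together 188 of the 210, and 4 held a single gene. The short arm (19p) holds 70 of the 210 genes and the long arm (19q) 140.

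The comparison of ARID1B-KO with WT asks how loss of the remodeller subunit relates to the level of each gene. In it the direction of the calls differed between the chromosome arms and between clusters. With DMSO, 23 of the 70 short-arm genes (32.9%) were higher in ARID1B-KO and none lower, with a median log2 fold change of 0.34, while 14.3% of all genes tested were called higher and 13.5% lower. Of the 139 tested long-arm genes, 11 were higher (7.91%) and 22 lower (15.8%), with a median of 0.00. With sorafenib, 33 short-arm genes (47.1%) were higher and none lower, with a median of 0.48, while 13.2% of all genes were called higher and 13.8% lower. There 11 long-arm genes were higher (7.91%) and 15 lower (10.8%), with a median of -0.07. In both treatments the long-arm share called lower was near that of all genes, and the share called higher was below it. The 2 comparisons use different libraries. The split by arm was chosen after the data were seen. ZNF582, on the long arm, did not pass the filter on low counts. Calls are those with an adjusted p below 0.05 by edgeR's quasi-likelihood test over 12821 genes. In bulk RNA, fewer cells that express a gene and less of its RNA per cell cannot be told apart.

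Over all genes tested, 27.8% were called in DMSO and 27% in sorafenib, and 26.8% and 28.2% of the zinc finger genes of chromosome 19, so the share called was near the background. Of the other protein-coding genes of the short arm, 55 were higher and 53 lower of 388 in DMSO, and 43 and 56 in sorafenib. On the long arm 46 were higher and 50 lower of 345 in DMSO, and 28 and 52 in sorafenib. The difference between these sets was not tested. Zinc finger genes on other chromosomes were called higher in 30 and lower in 19 of 211 in DMSO, and in 33 and 12 in sorafenib. For the short-arm genes called lower, edgeR gave 0 in both comparisons also at an unadjusted p under 0.05. DESeq2 gave 1 in DMSO, ZNF100, whose value is treated further on, and 0 in sorafenib.

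The number of short-arm calls depended on how the counts were handled, while the direction did not, apart from ZNF100, which DESeq2 and the fit of only the groups compared called lower in DMSO. With a correction for transcript length in each library, 6 short-arm genes were called higher in DMSO and 16 in sorafenib, with medians of 0.28 and 0.37, and none lower, while 17.1% and 16% of all genes were called. In DMSO the count was 13 without WT replicate 2, 14 without WT replicate 3 and 14 without ARID1B-KO replicate 1 of that treatment. Of the long-arm genes in DMSO, 5 were higher without WT replicate 3 and 6 without ARID1B-KO replicate 1, and 14 lower without WT replicate 2. In sorafenib 5 to 7 long-arm genes were higher without WT replicate 2 or 3 or ARID1B-KO replicate 2 or 3.

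**Figure D1:**
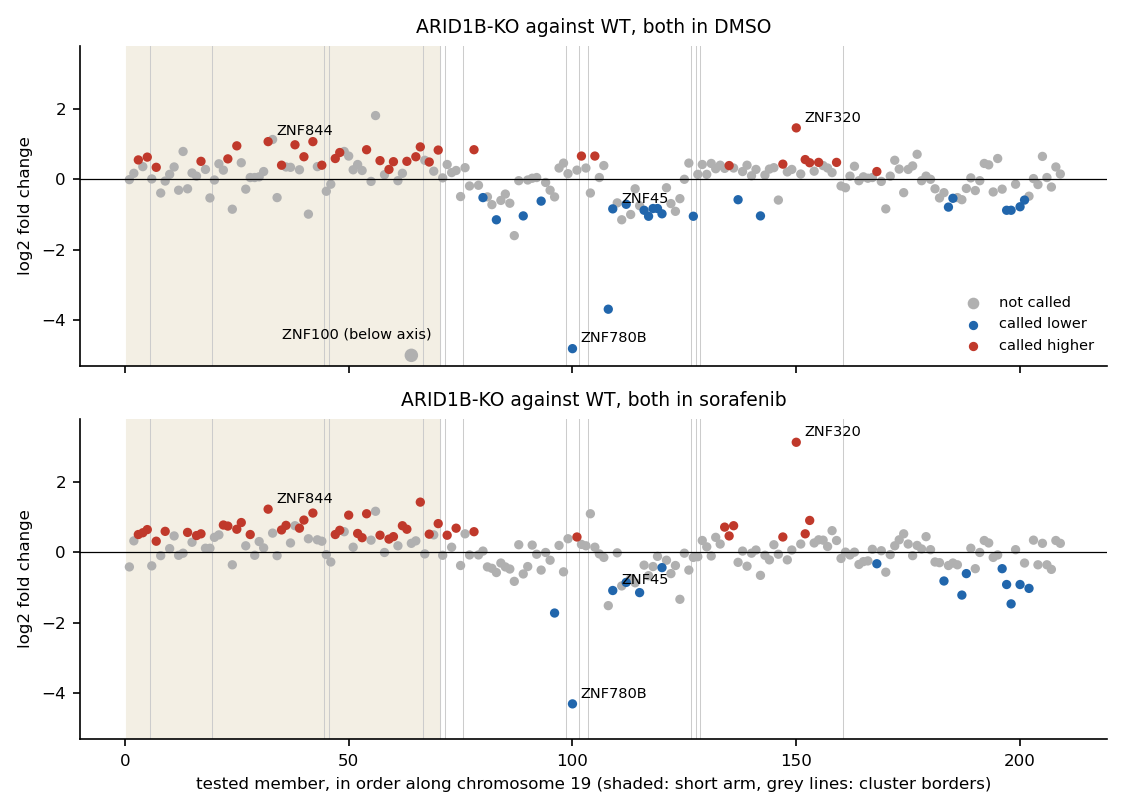
The log2 fold change of each of 209 tested zinc finger genes, ARID1B-KO against WT, in DMSO (upper) and sorafenib (lower), with genes in order along chromosome 19. The shaded short arm holds 23 and 33 red points, called higher, and no blue ones. The long arm holds 11 red points in each panel, and 22 and 15 blue points, called lower. The blue points are 15.8% and 10.8% of its tested genes, where 13.5% and 13.8% of all genes were called lower. ZNF100 lies below the axis in DMSO and is drawn at its edge.

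In the short-arm cluster from ZNF653 to ZNF791 (chr19:11483427-12640098, 25 genes) 8 genes were higher in DMSO and 11 in sorafenib, with none lower, and the medians were 0.35 and 0.51. ZNF844 read 2.22, 2.9 and 3.0 CPM in WT with DMSO and 5.8, 5.71 and 5.58 CPM in ARID1B-KO. With sorafenib it read 3.44, 3.83 and 2.85 CPM in WT and 8.84, 8.07 and 6.81 CPM in ARID1B-KO. Every knockout library was above every WT library, by a log2 change of 1.07 ± 0.17 (SE, edgeR adjusted p = 0.00057) in DMSO and 1.23 ± 0.17 (adjusted p = 0.000194) in sorafenib. With the correction for transcript length these calls were lost (adjusted p = 0.0522 and 0.595).

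ZNF564 lies in the same cluster (chr19:12525373-12551542). It read 3.15, 3.04 and 2.02 CPM in WT with DMSO and 5.8, 5.35 and 6.11 CPM in ARID1B-KO, and 3.37, 2.82 and 3.64 CPM against 6.44, 7.93 and 7.01 CPM with sorafenib. The groups did not overlap, and the log2 fold changes were 1.07 ± 0.19 (edgeR adjusted p = 0.00104) and 1.12 ± 0.18 (adjusted p = 0.000744). In the same cluster, ZNF443 differed by 0.64 ± 0.14 (adjusted p = 0.00503) in DMSO and 0.92 ± 0.15 (adjusted p = 0.000645) in sorafenib, and ZNF799 by 0.27 ± 0.13 (adjusted p = 0.142) and 0.69 ± 0.13 (adjusted p = 0.00215). ZNF440 was higher there by 0.95 ± 0.15 (adjusted p = 0.000425) in DMSO and 0.66 ± 0.15 (adjusted p = 0.00471) in sorafenib. ZNF442 was higher in DMSO by 0.98 ± 0.27 (edgeR adjusted p = 0.0164), a call lost with the length correction (adjusted p = 0.084) and without WT replicate 2 (0.0668), WT replicate 3 (0.0504) or ARID1B-KO replicate 3 (0.0512) of DMSO. ZNF439 was higher in sorafenib by 0.85 ± 0.23 (adjusted p = 0.0155), a call lost with protein-coding transcripts alone (0.0549) and without WT sorafenib replicate 3 (0.0661).

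Nearer the centromere, the cluster from ZNF101 to ZNF257 (chr19:19668796-22091480, 21 genes) had 9 genes higher in DMSO and 12 in sorafenib, none lower, with medians of 0.50 and 0.49. ZNF253 read 7.26, 6.65 and 6.07 CPM in WT with DMSO and 10.8, 10.6 and 12.4 CPM in ARID1B-KO, without overlap, a log2 change of 0.76 ± 0.15 (edgeR adjusted p = 0.00202; 0.117 with the length correction). ZNF626 differed by 0.84 ± 0.21 (adjusted p = 0.0111) in DMSO and 1.10 ± 0.22 (adjusted p = 0.0023) in sorafenib. Its calls were lost with the length correction (0.117 and 0.0641) and, in DMSO, without WT replicate 3 (0.05). ZNF682 was higher in sorafenib by 1.06 ± 0.29 (adjusted p = 0.0149; 0.113 with the length correction and 0.0596 without ARID1B-KO sorafenib replicate 3). ZNF257 read 0.383 to 0.963 CPM in WT with sorafenib and 1.58 to 2.52 CPM in ARID1B-KO, a log2 change of 1.43 ± 0.32 (adjusted p = 0.00517), which was not called when only protein-coding transcripts were summed (0.12).

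The last 4 short-arm genes, from ZNF724 to ZNF254 (chr19:23221599-24129968), had 2 higher in each treatment. They include ZNF91, a KRAB protein known to silence SVA and other retrotransposons, named here for that role after its values were seen. ZNF91 read 15.7, 13.0 and 12.5 CPM in WT with DMSO and 19.1, 19.2 and 19.5 CPM in ARID1B-KO, and 12.1, 13.4 and 14.7 CPM against 19.7, 19.7 and 18.3 CPM with sorafenib. All 6 knockout libraries were above all 6 WT libraries, with log2 fold changes of 0.49 ± 0.11 (edgeR adjusted p = 0.00482) and 0.52 ± 0.11 (adjusted p = 0.00342). ZNF254, in the same cluster, differed by 0.83 ± 0.19 (adjusted p = 0.00652) and 0.82 ± 0.19 (adjusted p = 0.00694).

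Of the other short-arm genes, the 5 from ZNF554 to ZNF77 (chr19:2819868-2944971) had 2 higher in DMSO and 3 in sorafenib, none lower, with medians of 0.36 and 0.51. ZNF333, which stands alone, read -0.34 and -0.06 and was not called. In the cluster from ZNF557 to ZNF846 (chr19:7069703-9793180, 14 genes) 2 were higher in DMSO and 5 in sorafenib, none lower, with medians of 0.11 and 0.21. Over all genes 14.3% and 13.2% were called higher, so the 2 in DMSO were near the background. ZNF561 read 24.4, 27.2 and 23.5 CPM in WT with DMSO and 34.5, 37.7 and 34.9 CPM in ARID1B-KO, a log2 change of 0.51 ± 0.10 (edgeR adjusted p = 0.00187). With sorafenib it read 29, 31 and 24.3 CPM and 39.3, 41.8 and 40.3 CPM, a change of 0.53 ± 0.10 (adjusted p = 0.00155).

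Short-arm genes with CCAATCA in the promoter were called higher in 20 of 49 in DMSO (40.8%) and 26 of 49 in sorafenib (53.1%). Those without it were called higher in 2 of 17 (11.8%) and 6 of 17 (35.3%). Outside the zinc finger genes of chromosome 19, tested genes with the motif were called higher in 16.4% and lower in 10.1% of 859 in DMSO, and in 13.6% and 12.3% in sorafenib. The genes with the motif are mostly copies of one another within 2 clusters, so motif, position and descent cannot be told apart here.

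On the long arm, calls in the cluster from ZNF575 to ZNF296 (chr19:43525497-45076478, 23 genes) went mostly in the opposite direction. In DMSO 8 of its genes were lower in ARID1B-KO and 1 higher, with a median log2 fold change of -0.71. In sorafenib 4 were lower and none higher, with a median of -0.43; at an unadjusted p under 0.05 edgeR gave 9 lower and 0 higher, and DESeq2 called 5 lower and 0 higher. The count in sorafenib was 2 without WT replicate 1, without WT replicate 3 or without ARID1B-KO replicate 2 of that treatment, and with the length correction it was 4 in DMSO and 2 in sorafenib. The 22 other protein-coding genes inside this interval were higher in 2 and lower in 4 in DMSO, and higher in 2 and lower in 1 in sorafenib. The gene that was higher in DMSO was ZNF576, by 0.66 ± 0.15 (adjusted p = 0.00668), named after its value was seen.

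ZNF45 (chr19:43912624-43935282) read 7.32, 6.6 and 7.79 CPM in WT with DMSO and 4.52, 3.55 and 4.04 CPM in ARID1B-KO. With sorafenib it read 6.82, 5.79 and 6.53 CPM in WT and 2.65, 3.58 and 2.81 CPM in ARID1B-KO. Every knockout library was below every WT library, and the log2 fold changes were -0.84 ± 0.16 (edgeR adjusted p = 0.00178) and -1.08 ± 0.16 (adjusted p = 0.000355). ZNF227 (chr19:44207547-44237268) read 6.61, 6.93 and 7.27 CPM in WT with DMSO against 3.28, 3.64 and 3.65 CPM in ARID1B-KO, a log2 change of -0.98 ± 0.14 (adjusted p = 0.000211), and with sorafenib -0.43 ± 0.14 (adjusted p = 0.0321).

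ZNF224, a KRAB protein known as a repressor of the aldolase A gene, read 8.45, 9.32 and 7.57 CPM in WT with DMSO and 3.71, 5.39 and 4.62 CPM in ARID1B-KO. The groups did not overlap, with a log2 change of -0.88 ± 0.16 (edgeR adjusted p = 0.00132), and with sorafenib it was -0.36 ± 0.16 (adjusted p = 0.11). Its neighbour ZNF225 was lower by a log2 change of -1.05 ± 0.27 (adjusted p = 0.012) in DMSO, and ZNF230 by -0.71 ± 0.23 (adjusted p = 0.0348) in DMSO and -0.85 ± 0.23 (adjusted p = 0.0147) in sorafenib. The call of ZNF230 in sorafenib was lost with the length correction (0.0839) and without WT sorafenib replicate 3 (0.053). ZNF404 read 0.525 to 0.787 CPM in WT with DMSO and 0.0 to 0.144 CPM in ARID1B-KO, low levels in both groups. Its call (edgeR adjusted p = 0.0213) was lost under 5 of 20 alternatives. These included leaving out WT replicate 2 (0.0523), ARID1B-KO replicate 1 (0.0781) or ARID1B-KO replicate 2 (0.0761) of DMSO.

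**Figure D2:**
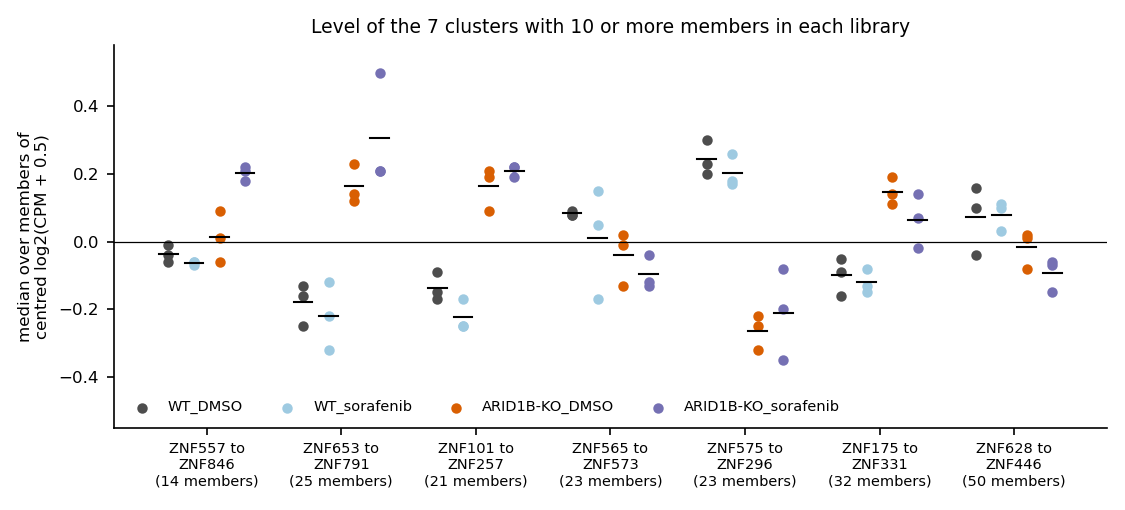
For each of the 7 clusters with 10 or more genes, the dots give 1 library each, as the median over its genes of log2(CPM + 0.5) after subtracting each gene's mean over the 12 libraries, and the bars give group means. All 6 ARID1B-KO libraries lie above all 6 WT libraries in the clusters from ZNF653 to ZNF791 and from ZNF101 to ZNF257 on the short arm and from ZNF175 to ZNF331 on the long arm, and below them in the cluster from ZNF575 to ZNF296. The gap is narrow in the cluster from ZNF175 to ZNF331, with the lowest ARID1B-KO library at -0.02 and the highest WT library at -0.05.

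A further pair of long-arm clusters had calls mostly in opposite directions. From ZNF175 to ZNF331 (chr19:51571283-53580269, 32 genes) 7 genes were higher and 2 lower in DMSO, and 7 higher and none lower in sorafenib, with medians of 0.31 and 0.23 and 28 and 22 genes above 0. In sorafenib edgeR gave 1 lower, ZNF528, at an unadjusted p under 0.05 and DESeq2 called 0. From ZNF628 to ZNF446 (chr19:55476617-58481230, 49 genes tested) 1 was higher and 6 lower in DMSO, and none higher and 9 lower in sorafenib. In sorafenib edgeR gave 1 higher at an unadjusted p under 0.05 and DESeq2 called 0. The medians were -0.04 and -0.09. Over all genes 13.5% and 13.8% were called lower, so the 6 in DMSO were near the background. Of the 19 other protein-coding genes inside this interval, 5 and 6 were lower and none higher, with medians of -0.07 and -0.36. Without WT replicate 2 the 6 in DMSO became 3, and with the length correction the counts of lower genes were 2 and 5. In the cluster from ZNF565 to ZNF573 (chr19:36182276-37817300, 23 genes) 1 was higher and 4 lower in DMSO, and 1 higher and 1 lower in sorafenib, with medians of -0.31 and -0.30.

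ZNF320, a KRAB protein with 11 fingers in the first of these clusters (chr19:52860851-52897693), had the highest fold of the genes called higher in both treatments. It read 0.548, 1.26 and 1.27 CPM in WT with DMSO and 2.95, 2.79 and 2.74 CPM in ARID1B-KO. With sorafenib it read 0.215, 0.383 and 0.209 CPM in WT and 1.94, 2.11 and 3.06 CPM in ARID1B-KO. The groups did not overlap in either treatment, with log2 fold changes of 1.46 ± 0.34 (edgeR adjusted p = 0.00676) and 3.13 ± 0.39 (adjusted p = 9.27e-05), and the interaction, 1.67 ± 0.52 (unadjusted p = 0.00659), missed the adjusted threshold (edgeR adjusted p = 0.14). Nearby ZNF160 was higher by 0.47 ± 0.16 (adjusted p = 0.0394) and 0.91 ± 0.15 (adjusted p = 0.00085).

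Of the lower long-arm genes, ZNF114 read 8.32, 9.78 and 10.4 CPM in WT with DMSO and 4.09, 5.39 and 4.23 CPM in ARID1B-KO, a log2 change of -1.05 ± 0.19 (edgeR adjusted p = 0.00133). With sorafenib it read 5.49 to 6.17 CPM in WT and 4.12 to 6.92 CPM in ARID1B-KO, and the groups overlapped (-0.14 ± 0.19, adjusted p = 0.64). ZNF585A differed by -1.04 ± 0.23 (adjusted p = 0.00505) in DMSO and -0.61 ± 0.23 (adjusted p = 0.0651) in sorafenib. ZNF256 differed by -0.88 ± 0.25 (adjusted p = 0.0214) in DMSO, a call lost under 5 of 21 alternatives, among them without WT replicate 1 (0.0745) or 2 (0.0527) or ARID1B-KO replicate 1 (0.0637) or 2 (0.0787) of DMSO, and by -1.46 ± 0.27 (adjusted p = 0.00159) in sorafenib, called under every alternative. ZNF329 differed by -0.78 ± 0.20 (adjusted p = 0.0104) and -0.91 ± 0.20 (adjusted p = 0.00408).

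ZNF417 and ZNF587 are near-identical copies known to silence endogenous retroviruses, so reads may be divided between them, and ZNF587 is named here for that role after its values were seen. ZNF417 read 6.02, 6.83 and 7.23 CPM in WT with DMSO and 2.42, 4.31 and 4.18 CPM in ARID1B-KO, without overlap, a log2 change of -0.88 ± 0.23 (edgeR adjusted p = 0.012). With sorafenib it was -0.91 ± 0.23 (adjusted p = 0.0104), lost with the length correction (0.612) and without ARID1B-KO sorafenib replicate 2 (0.051). ZNF587 differed by -0.28 ± 0.11 (adjusted p = 0.085) in DMSO and -0.46 ± 0.12 (adjusted p = 0.0106) in sorafenib.

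Of the 56 genes called in DMSO and the 59 called in sorafenib, 34 were called in both (60.7% and 57.6%). Of these, 26 were higher in both, 7 lower in both and 1, ZNF787, went in opposite directions. Over all tested genes 56.6% and 58.2% were shared. Of the 170 tested genes with a KRAB A box, 27 were higher and 21 lower in DMSO, and 40 and 11 in sorafenib. Of the 39 without, 7 were higher and 1 lower in DMSO, and 4 and 4 in sorafenib. As shares, 15.9% and 12.4% of the genes with the box and 17.9% and 2.56% of those without were higher and lower in DMSO, against 14.3% and 13.5% of all genes. In sorafenib these were 23.5% and 6.47% with the box and 10.3% and 10.3% without, against 13.2% and 13.8%.

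The lower call of ZNF780B, by -4.81 ± 1.10 (edgeR adjusted p = 0.0102) in DMSO and -4.30 ± 1.00 (adjusted p = 0.0111) in sorafenib, turned with the transcripts that were summed, and in DMSO was lost with the length correction (0.0601). A transcript of it of 8687 bases held 260, 0 and 203 counts in WT with DMSO, 185, 118 and 202 in WT with sorafenib and 0 in all 6 ARID1B-KO libraries. A transcript of 8664 bases that the annotation used here does not pair with a gene held 0, 181 and 0 counts in WT with DMSO, 0 in WT with sorafenib and 235 to 353 in the ARID1B-KO libraries. In every library 1 of the 2 held the counts and the other held none. With the second added, ZNF780B read 7.52 to 9.04 CPM in the 6 WT libraries and 11.5 to 16.3 CPM in the 6 ARID1B-KO libraries, without overlap. The log2 fold change was then 0.61 ± 0.12 (adjusted p = 0.00302) in DMSO and 0.93 ± 0.12 (adjusted p = 0.000153) in sorafenib, higher in place of lower. This alternative was chosen after the data were seen, and whether the second transcript belongs to ZNF780B was not tested.

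ZNF100 behaved in the same way. A transcript of it of 5691 bases held 39, 158 and 135 counts in WT with DMSO and 0 in the 3 ARID1B-KO libraries with DMSO, while a transcript of 5643 bases without a paired gene held 164, 0 and 0 and then 164, 211 and 189. As counted, the difference was not called (edgeR adjusted p = 0.199). With the second transcript added ZNF100 was higher in ARID1B-KO by 0.44 (adjusted p = 0.0499) in DMSO and 0.47 (adjusted p = 0.0393) in sorafenib. No other of the 210 genes had such a pair by the rule used, in which the 2 transcripts differ in length by at most 2%, each holds over 90% of their sum in some libraries, and their counts have a correlation of -0.75 or lower over the 12 libraries.

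**Figure D3:**
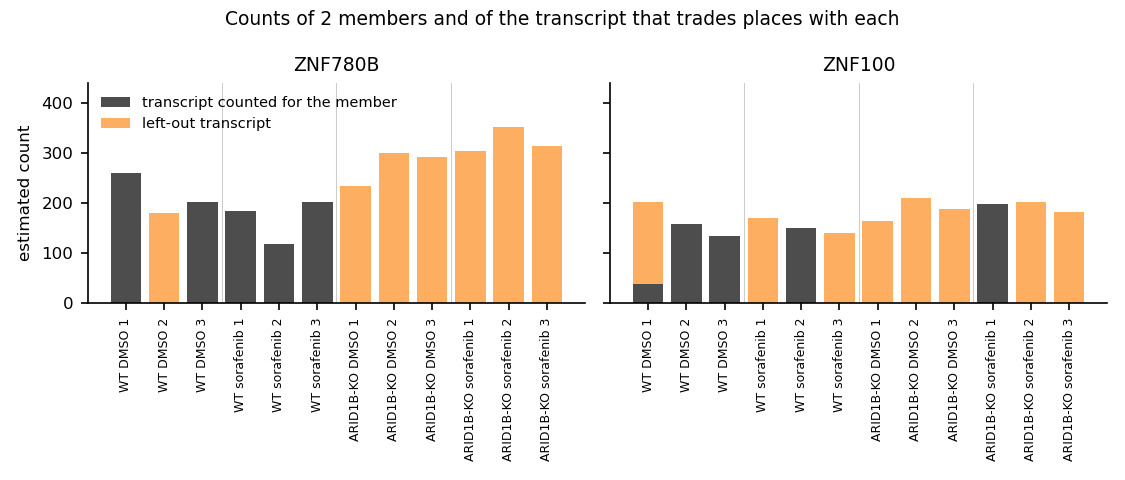
Estimated counts per library of a transcript of ZNF780B (left) and of ZNF100 (right) in dark grey, with those of its unpaired partner stacked on top in orange. For ZNF780B the 6 ARID1B-KO bars are all orange, at 235 to 353 counts.

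The comparison of sorafenib with DMSO asks how 48 h of the kinase inhibitor relates to these genes in each genotype. Fewer of them were called than of all genes. In WT 14 were higher and 23 lower of 209 (17.7%), against 35.4% of all genes, 17.5% higher and 18% lower. In ARID1B-KO 26 were higher and 28 lower (25.8%), against 46.7% of all genes, 23% higher and 23.7% lower. Their counts are low, and low counts give fewer calls, a point whose part in the difference was not tested. In WT the higher genes numbered 7 to 9 without DMSO replicate 2 or 3 or any 1 of the sorafenib replicates, and the lower genes 15 without DMSO replicate 2. In ARID1B-KO the higher genes numbered 17 without DMSO replicate 2. Zinc finger genes on other chromosomes, with a higher median level, were called in 27% and 37.9%. Of the 37 and 54 genes, 22 were called in both genotypes (59.5% and 40.7%), 9 higher and 13 lower, and none in opposite directions.

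Of the falls in WT, that of ZNF799 had the lowest adjusted p. It read 16.7, 18.3 and 14.6 CPM in WT with DMSO and 7.17, 6.27 and 5.78 CPM with sorafenib. In ARID1B-KO it read 22.5, 18.3 and 18.8 CPM with DMSO and 9.3, 11.1 and 10.8 CPM with sorafenib. The groups did not overlap, and it fell by a log2 change of -1.36 ± 0.13 (edgeR adjusted p = 7.05e-06) and -0.94 ± 0.13 (adjusted p = 7.91e-05). Its neighbour ZNF443, whose promoter is shown above, read 7.26, 5.95 and 7.19 CPM and then 3.48, 3.35 and 3.22 CPM in WT, and 12.1, 9.61 and 10.2 CPM and then 5.56, 6.37 and 7.16 CPM in ARID1B-KO. It fell by -1.02 ± 0.15 (adjusted p = 0.000179) and -0.74 ± 0.14 (adjusted p = 0.00103).

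Near these falling genes, with ZNF442 between, ZNF563 (chr19:12317477-12333720) rose. It read 7.7, 6.23 and 5.4 CPM and then 10.9, 10.8 and 10.5 CPM in WT, and 7.51, 8.31 and 8.75 CPM and then 11, 13.9 and 14 CPM in ARID1B-KO. The groups did not overlap, with changes of 0.74 ± 0.15 (edgeR adjusted p = 0.00172) and 0.66 ± 0.15 (adjusted p = 0.00228). The promoter of ZNF563 was 80.8% identical to that of ZNF443 and 80.9% to that of ZNF799, each over their alignment. Those of ZNF563 and ZNF443 hold CCAATCA, while that of ZNF799 does not.

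**Figure D4:**
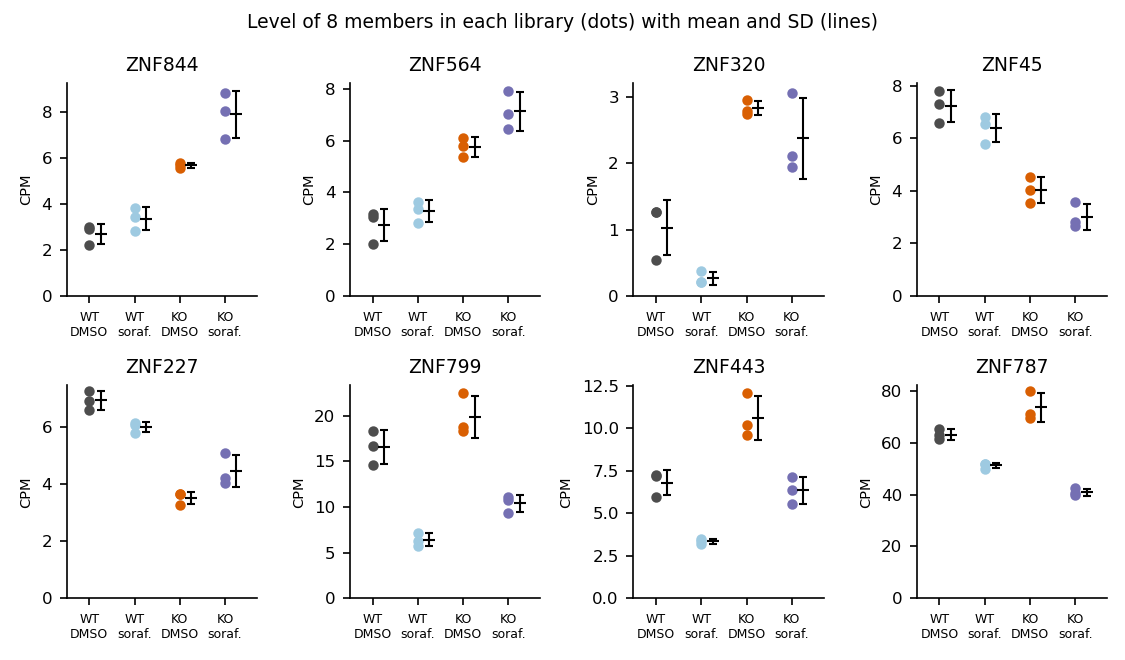
CPM of 8 zinc finger genes in each of the 12 libraries, with the group mean and SD over 3 libraries beside the dots and each vertical axis starting at 0. ZNF844 and ZNF564 are higher, and ZNF45 and ZNF227 lower, in ARID1B-KO under both treatments, while ZNF799 and ZNF443 are lower with sorafenib in both genotypes.

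Among the other falls, ZNF792 read 5.82, 6.51 and 5.81 CPM and then 2.22, 2.97 and 2.72 CPM in WT, and 3.85, 4.94 and 4.09 CPM and then 2.65, 1.51 and 1.93 CPM in ARID1B-KO. It fell by -1.20 ± 0.21 (edgeR adjusted p = 0.000696) and -1.08 ± 0.21 (adjusted p = 0.00123). ZNF320 fell in WT by -1.93 ± 0.40 (adjusted p = 0.00236; 0.0599 with the length correction), and in ARID1B-KO its change was -0.26 ± 0.33 (adjusted p = 0.556). ZNF587B fell by -0.79 ± 0.14 (adjusted p = 0.000878) and -0.57 ± 0.14 (adjusted p = 0.00551). ZNF146, the most abundant, fell by -0.54 ± 0.08 (adjusted p = 0.000183) and -0.42 ± 0.08 (adjusted p = 0.000828), from 66.9 to 78.6 CPM to 47.6 to 52.1 CPM in WT.

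Genes called in ARID1B-KO but not in WT included ZNF724, at -1.08 ± 0.27 (edgeR adjusted p = 0.00534), and ZNF649, at -0.98 ± 0.20 (adjusted p = 0.00171). In WT they read -0.50 ± 0.27 (adjusted p = 0.169) and -0.43 ± 0.20 (adjusted p = 0.121). The interaction terms of both genes were not called (adjusted p = 0.504 and 0.387). ZNF530 and ZNF544 fell in ARID1B-KO by -1.34 ± 0.31 (adjusted p = 0.00369) and -1.06 ± 0.19 (adjusted p = 0.000583), calls that were lost when only protein-coding transcripts were summed (0.954 and 0.114).

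Among the rises, ZNF160, a KRAB protein with 20 fingers, had the lowest adjusted p in ARID1B-KO. It read 5.72, 7.44 and 5.62 CPM and then 9.18, 10.6 and 11.8 CPM in WT, and 9.7, 8.4 and 7.93 CPM and then 16.6, 21.0 and 21.8 CPM in ARID1B-KO. The groups did not overlap, and it rose by 0.76 ± 0.16 (edgeR adjusted p = 0.0023) and 1.19 ± 0.15 (adjusted p = 4.65e-05). ZNF57 rose by 0.75 ± 0.18 (adjusted p = 0.00588) and 0.95 ± 0.18 (adjusted p = 0.000819). ZNF548 rose by 0.49 ± 0.13 (adjusted p = 0.0111) and 0.63 ± 0.13 (adjusted p = 0.00187), calls lost with the length correction (0.777 and 0.0775).

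In ARID1B-KO ZNF266 rose by 0.64 ± 0.13 (edgeR adjusted p = 0.00169), from 14.8, 18.8 and 20 CPM to 24.0, 26.6 and 33.1 CPM. In WT it read 21.3, 23.6 and 20 CPM and then 19.2, 18.9 and 18.1 CPM (-0.21 ± 0.13, adjusted p = 0.25). The interaction was 0.85 ± 0.19 and missed the threshold (adjusted p = 0.0531), while DESeq2 called it. ZNF439 and ZNF69 rose in ARID1B-KO by 0.89 ± 0.23 (edgeR adjusted p = 0.00662) and 0.63 ± 0.17 (adjusted p = 0.00828). ZNF20 rose in WT by 1.19 ± 0.40 (adjusted p = 0.0364), from 0.562 to 3.67 CPM to 4.73 to 4.83 CPM. Its call was lost under 7 of 21 alternatives, among them without WT DMSO replicate 1 (0.0957) or any 1 of the WT sorafenib replicates (0.0734 to 0.0774).

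**Figure D5:**
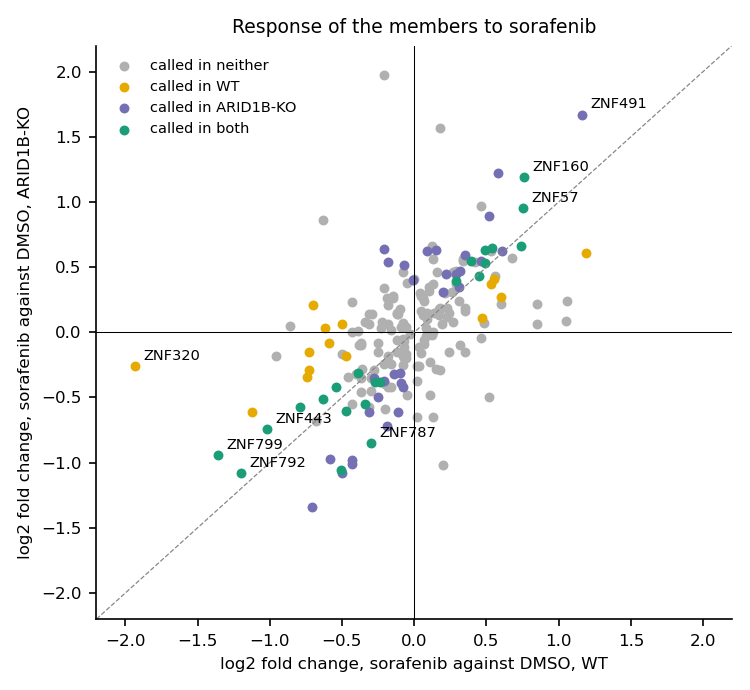
Log2 fold change of sorafenib against DMSO in WT (horizontal) and in ARID1B-KO (vertical) for 208 of the 209 tested genes, with the line of equal response dashed and ZNF100 outside the axes. The 22 genes called in both genotypes lie in the upper right or the lower left, and ZNF320 is called in WT.

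The test of whether the response to sorafenib differed between the genotypes called 1 of the 209 genes, as lower in ARID1B-KO, against 0.835% of all genes, 0.374% higher and 0.46% lower. This was ZNF787, a protein with 7 fingers and no KRAB A box by the pattern used (chr19:56087366-56121295). It read 63.1, 61.3 and 65.2 CPM in WT with DMSO and 51.8, 51.9 and 50.1 CPM with sorafenib, and 80.2, 71.3 and 69.7 CPM and then 39.9, 42.4 and 40.5 CPM in ARID1B-KO. It fell by -0.30 ± 0.07 (edgeR adjusted p = 0.00567) in WT and -0.85 ± 0.07 (adjusted p = 1.53e-06) in ARID1B-KO. The knockout was thus above WT with DMSO (0.22 ± 0.07, adjusted p = 0.0354) and below it with sorafenib (-0.32 ± 0.07, adjusted p = 0.00537), without overlap in either. The interaction was -0.55 ± 0.10 (adjusted p = 0.0347). That call stood close to the threshold and was lost under 15 of 20 alternatives, which included leaving out any library but ARID1B-KO sorafenib replicate 3, with adjusted p up to 0.286. No gene was called with a higher response in ARID1B-KO by edgeR, where 13 had an unadjusted p under 0.05, and DESeq2 called 3, ZNF100, ZNF114 and ZNF266.

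The RNA of the proteins that KRAB factors work through was measured, as a list of 30 silencing partners. With sorafenib 8 rose and 8 fell in WT (53.3% called, against 35.4% of all genes), and 6 rose and 11 fell in ARID1B-KO (56.7% against 46.7%). In ARID1B-KO against WT 7 were higher and 1 lower with DMSO (26.7% against 27.8%), and 4 higher and 6 lower with sorafenib (33.3% against 27%). TRIM28 read 311 to 353 CPM in WT with DMSO, and its change with sorafenib was -0.20 ± 0.09 (edgeR adjusted p = 0.0986) in WT and -0.38 ± 0.09 (adjusted p = 0.0037) in ARID1B-KO. SETDB1 rose with sorafenib by 0.37 ± 0.10 (adjusted p = 0.0138) and 0.28 ± 0.11 (adjusted p = 0.0438). Between the genotypes TRIM28 read -0.06 ± 0.09 (adjusted p = 0.65) with DMSO and -0.24 ± 0.09 (adjusted p = 0.0633) with sorafenib, and SETDB1 -0.12 ± 0.11 (adjusted p = 0.404) and -0.22 ± 0.10 (adjusted p = 0.144). The response to sorafenib differed between the genotypes for 2 of the 30 (6.67%, against 0.835% of all genes), both with a lower log2 response in ARID1B-KO. These were CBX5, a heterochromatin protein that reads H3K9 methylation (-0.54 ± 0.11, adjusted p = 0.0424), and UHRF1, which guides maintenance of DNA methylation (-0.60 ± 0.12, adjusted p = 0.0411), both named after their values were seen. Both calls stood close to the threshold. DESeq2 made them too, and the other alternatives were not examined for these 2 genes. CBX5 rose with sorafenib by 1.03 ± 0.08 in WT and 0.49 ± 0.08 in ARID1B-KO, while UHRF1 fell, by -0.84 ± 0.08 and -1.44 ± 0.09. None of the 30 had a higher response in ARID1B-KO by edgeR, with 1 at an unadjusted p under 0.05, or by DESeq2.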

How the data were processed

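Polyadenylated RNA of 12 HepG2 libraries was sequenced as paired-end reads. The authors deposited Salmon's output for each library, with, per the file headers, an estimated count (fractional, not normalized), a length, an effective length and a TPM value (scaled within a library by the authors) for each of 177456 transcripts. Salmon, DESeq2 1.46.0 and GRCh38 are named in the submitters' processing notes. Bias and strand settings are not given in the sources used here. Other deposited columns, transcript lengths and effective lengths, served the length correction.

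GENCODE 44 (GRCh38) gave a gene to 165533 transcripts (93.3%), by identifier without version. The 11923 others held 2.87% to 3.2% of a library's counts and were left out of gene counts. Counts were summed per gene and rounded. The test was edgeR 4.0.16 (R 4.3.3), a quasi-likelihood F test with robust estimation, TMM and filterByExpr, on 12821 genes, with 4 group means over all 12 libraries and Benjamini-Hochberg adjustment. The threshold was an adjusted p of 0.05; adjusted p-values are edgeR's unless DESeq2 is named. The SE is |log2 fold change| over √F. CPM use TMM library sizes. The script was tested on simulated data. The p-values compare group means with the spread between libraries of the same group, estimated over the 4 groups together.

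Named genes were, per comparison, up to 10 called rises and 10 called falls whose higher group averaged 0.5 CPM or more, the 10 highest in TPM, genes at 0 in a group, and neighbours of named genes; part of them are printed. The genes, lists and clusters were chosen with earlier results of these data known. KRAB boxes and fingers were counted by pattern in GENCODE canonical translations, since RefSeq proteins were not used here. Promoters are from RefSeq (GRCh38.p14). Alternatives were RLE factors, DESeq2 1.42.0, 2 other filters, a length correction, protein-coding transcripts alone, a replicate block, the compared groups alone and leaving out each library.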

Additional observations from a re-analysis of the deposited data

Results flagged for a closer look

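The response of ZNF787 to sorafenib passed the test of a difference between the genotypes, a call lost under 15 of 20 alternatives (adjusted p from 0.000251 with DESeq2 to 0.286 with the length correction). The difference, ARID1B-KO minus WT, was -0.55 ± 0.10 on the log2 scale (edgeR adjusted p = 0.0347), and all 3 ARID1B-KO libraries with sorafenib lay below all others, at 39.9 to 42.4 CPM against 50.1 CPM or more.

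A signal appeared in a transcript that the gene counts did not use. The transcript that trades places with a transcript of ZNF780B held at least 235 estimated counts in each of the 6 ARID1B-KO libraries and 0 in 5 of the 6 WT libraries. With it added, ZNF780B was higher in CPM in every ARID1B-KO library than in any WT library.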

How the results depend on the processing

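With the correction for transcript length, counts of called zinc finger genes were 8 higher and 11 lower with sorafenib in WT, 15 and 17 in ARID1B-KO, 10 and 9 for ARID1B-KO against WT in DMSO, and 20 and 9 in sorafenib. By arm it gave 6 higher on 19p, 4 higher and 9 lower on 19q in DMSO, and 16, 4 and 9 in sorafenib. It gave 4 and 2 lower in the cluster from ZNF575 to ZNF296, and 2 and 5 in that from ZNF628 to ZNF446. Without a filter on low counts 9 were higher with sorafenib in WT. On 19p, DESeq2 and the fit of only the groups compared each gave 1 lower in DMSO. Of the interaction, higher calls were 3 with DESeq2, 1 without a filter and 1 with a mean of at least 1 CPM. Its lower call became 0 without a filter, with the length correction, with the replicate block and with protein-coding transcripts only. These last gave these genes 0.134% of counts in WT with DMSO and 0.122% with sorafenib. Changing normalization moved none of these counts by over 1.5 times. The causes were not tested, apart from the transcript added.

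Leaving out each library gave, with sorafenib, 7 to 15 higher and 15 to 23 lower in WT, and 17 to 26 and 21 to 29 in ARID1B-KO. For ARID1B-KO against WT it gave 19 to 36 and 14 to 22 in DMSO, and 31 to 48 and 11 to 17 in sorafenib. On 19p the ranges of higher calls were 13 to 24 and 25 to 36, with 0 lower throughout. On 19q they were 5 to 13 higher and 14 to 22 lower in DMSO, and 5 to 12 and 11 to 17 in sorafenib. In the cluster from ZNF575 to ZNF296 lower calls ranged from 6 to 9 and 2 to 5, and in that from ZNF628 to ZNF446 from 3 to 7 and 7 to 10. The interaction gave 0 higher and 0 to 1 lower.

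Reversed values were those of ZNF780B with the transcript added (0.61 and 0.93) and of ZNF100, which became 0.44 in DMSO with it. In sorafenib ZNF100, at 0.26, was -0.35 without WT replicate 1, -0.33 without WT replicate 3 and -8.80 without ARID1B-KO replicate 1 of that treatment, and 9.05 without WT replicate 2. Same-numbered libraries did not deviate together (correlations of -0.163 to 0.184, 1 of 18 over 0.1). Libraries with different numbers had correlations of -0.169 to 0.183. No pairing by number was seen, which does not exclude one. With the replicate block 19 and 31 genes were higher on 19p.

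The rule with 10 counts in all 12 libraries left 185 of the 210 genes, and a gap of 500000 bases gave 19 clusters in place of 16. The median gene held 100 to 145 counts in a library; the part of this depth in the number of calls was not tested.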
